A study of Homo sapiens with 6 samples.

Results

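The 9 genes described here encode enzymes of the pentose phosphate pathway and enzymes that supply NADPH by other routes. They were PGLS, PGD, RPIA, RPE, TKT, TALDO1, ME1, IDH1 and NADK, taken by gene symbol from a deposited table of 58884 genes. Each symbol stood on 1 row, and all 9 passed the filter of a mean normalized count of at least 10, as did 16701 genes in all. The libraries came from KYSE450, an esophageal squamous cell carcinoma line with wild-type NRF2 and KEAP1 left unedited, and from KEAP1null-KYSE450, a line derived from it by CRISPR-Cas9 editing of exon 2 of KEAP1. There were 3 libraries of each line, from untreated cells grown in the same serum-containing medium. KEAP1null-KYSE450 is a single clone, so differences between that clone and its parent other than the loss of KEAP1 enter every comparison. Nothing in the sources used here says whether the libraries of a line came from separate cultures, so the p-values measure only the spread between these libraries.

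The pentose phosphate pathway branches from glycolysis at the level of glucose phosphate. Its oxidative arm releases carbon dioxide and reduces NADP to NADPH, and its non-oxidative arm rearranges sugar phosphates and returns them to glycolysis or delivers ribose phosphate for nucleotides. NADPH is the electron donor for glutathione and thioredoxin reduction and for fatty acid and cholesterol synthesis. KEAP1 presents the transcription factor NRF2 for degradation, and NRF2 binds antioxidant response elements and is known to activate several NADPH-forming genes.

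Because NRF2 binds a short motif, the promoters of the 9 genes were searched for the core of the antioxidant response element, TGACNNNGC, on both strands. RefSeq promoters (GRCh38.p14, 250 bases before to 50 bases after each listed start) were found for all 9 genes, 12 promoters in all. The core was present in promoters of 4 of the 9 genes, PGD, ME1, IDH1 and RPE, against 16.1% of the 27305 genes in the table. Counted by promoter, 4 of the 12 held it, against 13.3% of all 35116 promoters. The stretches around the matches before the start are shown on the strand of the gene, with the match in capitals.
ME1: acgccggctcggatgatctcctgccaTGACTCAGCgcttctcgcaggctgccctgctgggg
IDH1: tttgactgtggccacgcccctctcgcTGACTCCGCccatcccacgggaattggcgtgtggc
PGD: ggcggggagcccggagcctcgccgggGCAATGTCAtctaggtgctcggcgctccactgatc
RPE: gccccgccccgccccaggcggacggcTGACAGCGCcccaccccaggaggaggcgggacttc

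The ME1 stretch is chr6:83431154-83431214 on the minus strand, and its match begins 137 bases before the start. This match also holds the AP-1 motif TGANTCA, which the other 3 do not. A second match in the ME1 promoter lies after the start. The IDH1 stretch, chr2:208255180-208255240 on the minus strand, belongs to 1 of the 2 starts listed for IDH1 and begins its match at 143 bases before that start. It lies inside the span of IDH1 in gencode v44, chr2:208236229-208266074, and so not upstream of the gene as annotated there. The PGD stretch is chr1:10398837-10398897 on the plus strand, where the core reads on the opposite strand from 201 bases before the listed RefSeq start. This stretch too lies inside the gencode v44 span of its gene, chr1:10398592-10420511. The RPE stretch is chr2:210002461-210002521 on the plus strand, with the match 151 bases before the start. No promoter of PGLS, RPIA, TKT, TALDO1 or NADK held these letters in the window searched. A match of letters is a description and does not show that a factor binds there.

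The 6 libraries were comparable in size, with summed normalized counts between 54829313 and 57380170, and Pearson's r of log2 values across genes, which are not independent replicates, was 0.984 or higher within a line. KEAP1 mRNA was between 5146 and 5760 normalized counts in KYSE450 libraries and between 4906 and 5737 in KEAP1null-KYSE450 libraries. The level of the edited gene's mRNA therefore did not tell the lines apart. NQO1, a quinone reductase and established NRF2 target, lay between 15681 and 17100 in KYSE450 and between 104116 and 110351 in KEAP1null-KYSE450 libraries. NFE2L2, the gene of NRF2, fell by 0.47 on the log2 scale (adjusted p = 6.34e-04, limma). Among markers of squamous epithelium KRT5, TP63, SOX2 and CDH1 were at 4407 or more in every library, but they differed between the lines. KRT5 was 2.73-fold higher in KEAP1null-KYSE450 cells, and TP63, SOX2, CDH1, KRT6A and KRT14 were lower in every KEAP1null-KYSE450 library than in any KYSE450 library. The log2 fold changes of TP63 and CDH1 were -0.60 and -0.82, with adjusted p of 0.00115 and 0.00218 (limma). SOX2 fell from between 15944 and 18028 to between 7934 and 8948 normalized counts (adjusted p = 3.48e-06, limma), and KRT14 lay between 30.5 and 41.8 in KEAP1null-KYSE450 libraries. PECAM1 was at 0 in every library, and the leukocyte markers PTPRC, CD3E and CD14 together reached at most 15.2 normalized counts. The summed fibroblast markers, nearly all of them COL1A1 reads, lay between 622 and 853 in KYSE450 and between 336 and 436 in KEAP1null-KYSE450 libraries, and the summed endothelial markers between 41.5 and 73.8 in all 6 libraries. Within that sum CDH5 fell from between 10.7 and 28.9 to between 1.01 and 3.06 normalized counts (adjusted p = 0.0048, limma). Their part in the results was not tested.

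KEAP1null-KYSE450 cells carried more mRNA of most of these NADPH-forming and carbon-rearranging enzymes, and the increase was uneven. PGD rose 4.52-fold, ME1 2.87-fold and IDH1 2.05-fold, and these 3 of the 9 genes passed both thresholds of the study, an adjusted p below 0.05 and a log2 fold change of 1 or more in either direction. Over all genes tested, 12.2% passed both thresholds upward and 5.98% downward, and none of the 9 genes passed both downward. By the adjusted p alone, TKT, TALDO1 and PGLS were also higher and RPIA was lower, which makes 6 genes higher and 1 lower, where 24.3% of all genes were higher and 25.5% lower. RPE and NADK did not pass the test. The median log2 fold change was 0.85 for the 9 genes and 0.0041 for all genes tested. The 9 genes were chosen with earlier results of these data known, so these shares and medians describe them and are no test of them as a set. Together the 9 genes held between 0.229% and 0.245% of all normalized counts in KYSE450 libraries and between 0.521% and 0.563% in KEAP1null-KYSE450 libraries. In bulk libraries a change in the RNA of each cell and a change in the share of cells that carry it cannot be told apart.

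**Figure D1:**
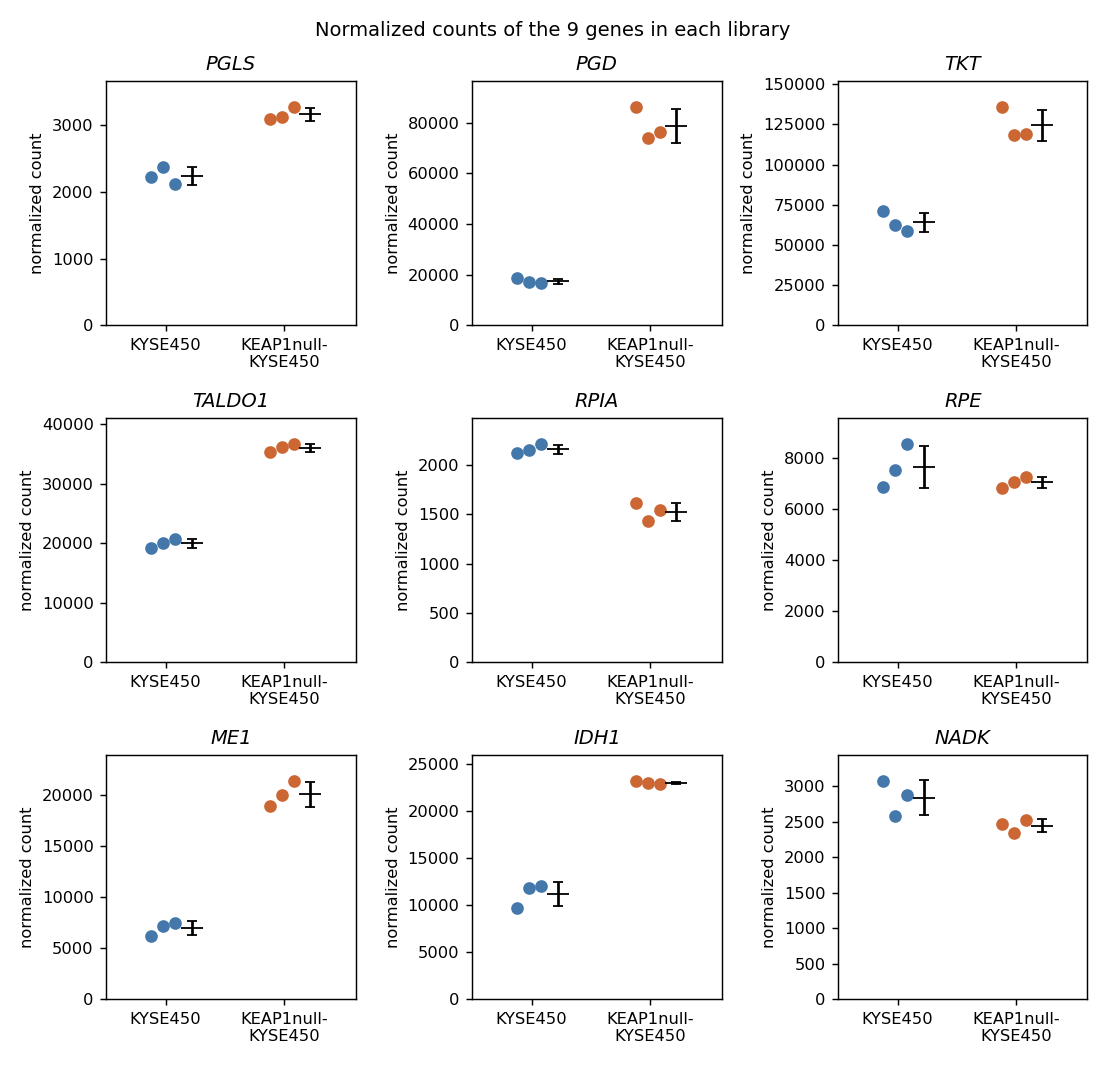
Normalized count (vertical axes, each starting at 0) of each of the 9 genes in the 3 KYSE450 libraries (blue) and the 3 KEAP1null-KYSE450 libraries (orange), with the mean and SD of each line as black marks. The orange points lie above all blue points for PGLS, PGD, TKT, TALDO1, ME1 and IDH1, below them for RPIA and NADK, and among them for RPE.

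In the oxidative arm, PGD encodes 6-phosphogluconate dehydrogenase, which forms NADPH and ribulose phosphate. Its gene lies at chr1:10398592-10420511 in hg38. PGD was at 18513, 17124 and 16546 normalized counts in KYSE450 libraries and at 86111, 73747 and 76159 in KEAP1null-KYSE450 libraries. The lowest KEAP1null-KYSE450 library was far above the highest KYSE450 library. The log2 fold change of PGD was 2.18 (standard error, SE, 0.10, adjusted p = 5.48e-09, limma), larger than that of 96.1% of all genes tested. It stayed between 2.11 and 2.22 under 16 other settings and passed both thresholds in each of them. PGLS, at chr19:17511636-17521288, encodes the lactonase that acts just before PGD. Its counts were 2221, 2377 and 2114 in KYSE450 and 3091, 3129 and 3274 in KEAP1null-KYSE450 libraries. The lines did not overlap, but the difference in PGLS was much smaller than in PGD, with a log2 fold change of 0.50 (SE 0.093, adjusted p = 7.66e-04, limma).

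The ratio of PGD to PGLS within a library shows the same unevenness. It was 8.33, 7.20 and 7.83 in KYSE450 libraries and 27.9, 23.6 and 23.3 in KEAP1null-KYSE450 libraries. The change of this ratio was 1.67 on the log2 scale, with an exact two-sided permutation p of 0.1, which is the smallest that 3 libraries against 3 can give. Of 7 such ratios compared, 5 reached that p, and after Benjamini-Hochberg adjustment over the 7 it was 0.14 for each of them. With 3 libraries against 3, that p says only that the lines do not overlap. Among single genes tested, 28.4% were higher without overlap and 29.3% lower, and no such share was taken over ratios. The ratio ME1/ME2 is among the 5 but is set by the pseudocount, since ME2 is at the floor, and is not read further.

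Ribulose phosphate is then converted by RPIA, the isomerase that makes ribose phosphate, or by RPE, the epimerase that makes xylulose phosphate. RPIA, at chr2:88691673-88750929, was the member that fell. It was at 2119, 2149 and 2209 normalized counts in KYSE450 and at 1611, 1429 and 1542 in KEAP1null-KYSE450 libraries. Every KEAP1null-KYSE450 library was below every KYSE450 library, with a log2 fold change of -0.50 (SE 0.097, adjusted p = 0.00102, limma). This change is below the fold threshold of the study. RPE, at chr2:210002565-210022260, had 6879, 7545 and 8534 normalized counts in KYSE450 and 6828, 7057 and 7264 in KEAP1null-KYSE450 libraries. The lines overlapped. The 95% interval of its log2 fold change ran from -0.33 to 0.10 (adjusted p = 0.362, limma), so a fall of about that lower bound cannot be set aside, and after quantile normalization the value was 0.054. RPEL1, a near-identical copy of RPE that could share its reads, held at most 3 reads in any library. How reads that fit both genes were counted was not tested, so this low count does not show that RPE lost no reads. The RPE to RPIA ratio lay between 3.25 and 3.86 in KYSE450 and between 4.24 and 4.94 in KEAP1null-KYSE450 libraries, with no overlap.

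The non-oxidative arm rests on TKT, transketolase, and TALDO1, transaldolase, which move carbon units between sugar phosphates. TKT, at chr3:53224712-53256052, was at 70774, 62447 and 58932 normalized counts in KYSE450 and at 135721, 118696 and 119056 in KEAP1null-KYSE450 libraries. Its lines did not overlap, and the mean was 1.94-fold higher in KEAP1null-KYSE450 cells. The log2 fold change of 0.96 (SE 0.12, adjusted p = 3.15e-05, limma) stopped just short of the fold threshold. It was 1.03 without KYSE450 library 1, the highest of its line, and 1.01 with edgeR on the 4 libraries whose reads were recovered, which places TKT past both thresholds there. TALDO1, at chr11:747415-765012, was at 19197, 20026 and 20713 in KYSE450 and at 35327, 36252 and 36629 in KEAP1null-KYSE450 libraries. Its spread was narrow, with a coefficient of variation of 3.80% and 1.86% in KYSE450 and KEAP1null-KYSE450. The log2 fold change of TALDO1 was 0.85 (SE 0.091, adjusted p = 9.77e-06, limma), and it was 1.01 after quantile normalization.

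The ratio of TKT to TALDO1 was 3.69, 3.12 and 2.84 in KYSE450 libraries and 3.84, 3.27 and 3.25 in KEAP1null-KYSE450 libraries. The values overlapped (exact permutation p = 0.4, two-sided), and the difference of 0.11 on the log2 scale changed sign to -0.19 after quantile normalization. Within each line, library 1 had the highest TKT and PGD counts and the lowest counts of TALDO1, RPE and ME1, although these numbers follow the columns and tie no library of one line to one of the other.

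**Figure D2:**
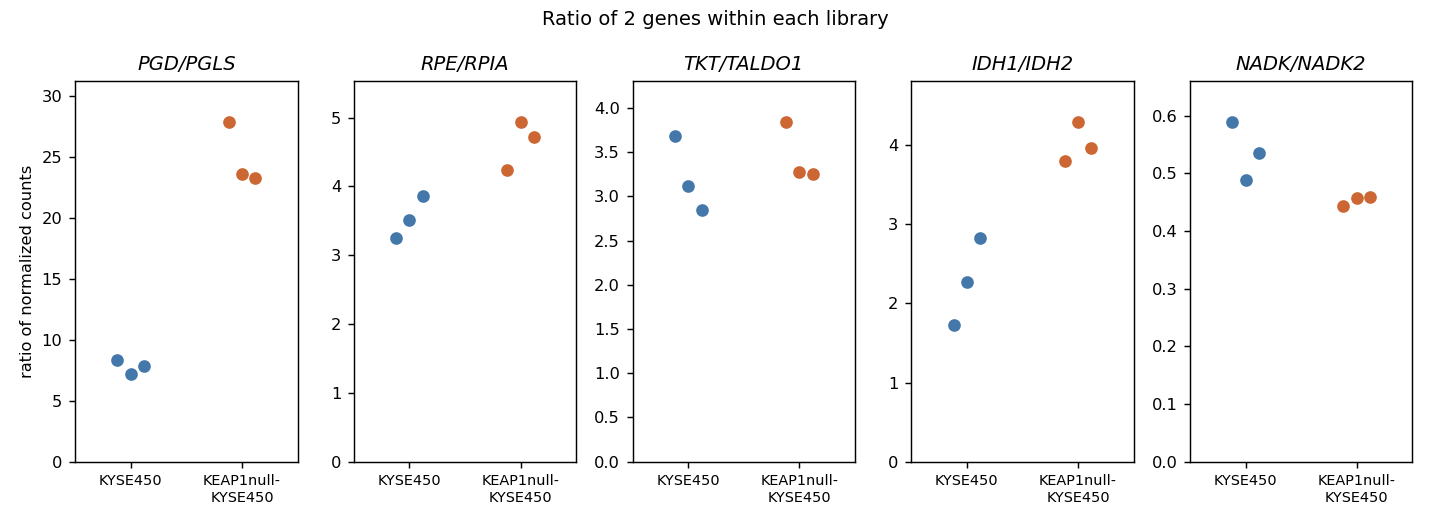
Ratio of the normalized counts of 2 genes (vertical axes, starting at 0) within each library, for KYSE450 (blue) and KEAP1null-KYSE450 (orange). PGD/PGLS, RPE/RPIA and IDH1/IDH2 are higher in every KEAP1null-KYSE450 library, NADK/NADK2 is lower in every one, and TKT/TALDO1 overlaps between the lines.

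Outside the pathway, ME1 and IDH1 form NADPH in the cytosol. ME1, malic enzyme, oxidizes malate to pyruvate and lies at chr6:83210402-83431051. It was at 6233, 7212 and 7505 normalized counts in KYSE450 and at 18886, 20007 and 21315 in KEAP1null-KYSE450 libraries. The lines were well separated, with a log2 fold change of 1.53 (SE 0.10, adjusted p = 1.14e-07, limma). Under 16 other settings ME1 lay between 1.45 and 1.71 and passed both thresholds in all of them. The mitochondrial malic enzymes were almost undetected. ME2 held at most 2 reads in any library of either line, and ME3 had no read in KYSE450 libraries, while KEAP1null-KYSE450 libraries held 0, 1.02 and 6.05 normalized counts of it. No fold change is given for ME2 or ME3, and ratios against them depend on the added pseudocount.

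IDH1, cytosolic isocitrate dehydrogenase at chr2:208236229-208266074, was at 9774, 11894 and 12023 normalized counts in KYSE450 and at 23195, 23013 and 22944 in KEAP1null-KYSE450 libraries. The KEAP1null-KYSE450 libraries were almost level, with a coefficient of variation of 0.561%, against 11.2% in KYSE450. Its log2 fold change was 1.04 (SE 0.10, adjusted p = 4.42e-06, limma), just past the fold threshold. That call rested on KYSE450 library 1, the lowest of its line: without it the log2 fold change was 0.95, with an adjusted p of 9.48e-07 (limma). IDH1 also lost the call when tested against a log2 fold change of 1 (limma treat), with an adjusted p of 1. IDH2, the mitochondrial counterpart, was at 5664, 5234 and 4248 in KYSE450 and at 6103, 5361 and 5790 in KEAP1null-KYSE450 libraries. These values overlapped, and the 95% interval of the IDH2 log2 fold change ran from -0.049 to 0.44 (adjusted p = 0.168, limma). The IDH1 to IDH2 ratio lay between 1.73 and 2.83 in KYSE450 and between 3.80 and 4.29 in KEAP1null-KYSE450 libraries, without overlap and with an exact permutation p of 0.1.

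NADK phosphorylates NAD to NADP in the cytosol and so supplies the acceptor that PGD, ME1 and IDH1 reduce. The gene lies at chr1:1751232-1780457. It was at 3071, 2583 and 2875 normalized counts in KYSE450 and at 2471, 2342 and 2523 in KEAP1null-KYSE450 libraries. All KEAP1null-KYSE450 values were below all KYSE450 values, an order that 29.3% of all genes tested showed in this direction, while 28.4% showed the opposite order. The log2 fold change was -0.21 (SE 0.099, adjusted p = 0.0893, limma), and the adjusted p lay between 0.0691 and 0.374 under 15 other settings and was 1 when tested against a log2 fold change of 1 (limma treat). NADK2, which makes NADP in mitochondria, was between 5129 and 5583 in all 6 libraries, with a 95% interval of its log2 fold change from -0.16 to 0.22.

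**Figure D3:**
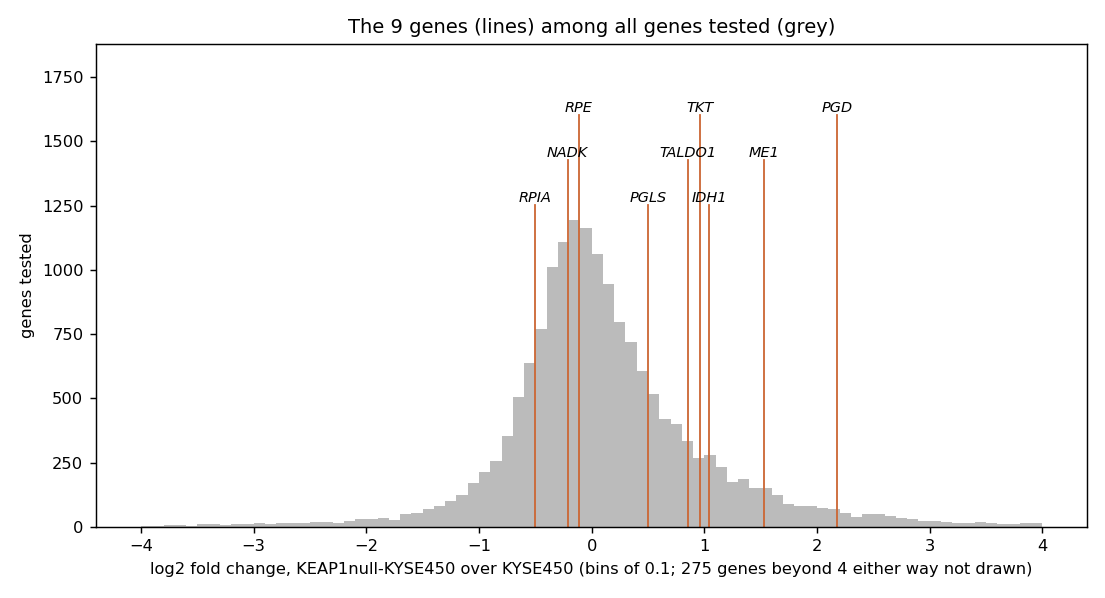
Distribution of the log2 fold change (horizontal axis, bins of 0.1) over all genes tested (grey, number of genes on the vertical axis), except 275 genes beyond 4 in either direction, which are not drawn, with the 9 genes as orange lines. PGD at 2.18 and ME1 at 1.53 lie in the upper tail, TKT, TALDO1 and IDH1 stand close together near 1, and RPE at -0.11 and NADK at -0.21 lie in the middle of the distribution.

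Levels of different genes were compared per kilobase of the canonical transcript in gencode v44, in normalized counts per kilobase. In KYSE450 cells TKT was highest with 21379 ± 2030 (SD, n = 3), followed by TALDO1 with 16663 ± 633, PGD with 7669 ± 446 and IDH1 with 4845 ± 545 (SD, n = 3 each). RPE (2406 ± 262), PGLS (2220 ± 132) and ME1 (2092 ± 200) overlapped in their library values and could not be ordered. RPIA (1191 ± 25.3) and NADK (879 ± 75.9) were lowest. In KEAP1null-KYSE450 cells the order changed. TKT remained first with 41552 ± 3247, PGD came second with 34688 ± 2890 ahead of TALDO1 with 30083 ± 559, and IDH1 followed with 9944 ± 55.8. ME1 with 6012 ± 364 stood above PGLS with 3139 ± 95.7 and RPE with 2217 ± 68.5, and RPIA with 842 ± 50.6 and NADK with 756 ± 28.9 were again lowest (SD, n = 3 each). Neighbours in this second order did not overlap in their library values. With the union of all annotated exons as the length, an alternative chosen after seeing the data, PGD was first in KEAP1null-KYSE450 cells with 23604 against 13102 for TKT, and TALDO1 with 6873 stood beside TKT with 6741 in KYSE450 cells. By that length PGLS with 788 fell below RPIA with 1191 in KYSE450 cells, apart from RPE with 2172 and ME1 with 2092. In KEAP1null-KYSE450 cells ME1 with 6012 then stood above IDH1 with 4905, and RPE with 2001 above PGLS with 1114. The order of the genes therefore depends on the length used, in both lines.

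**Figure D4:**
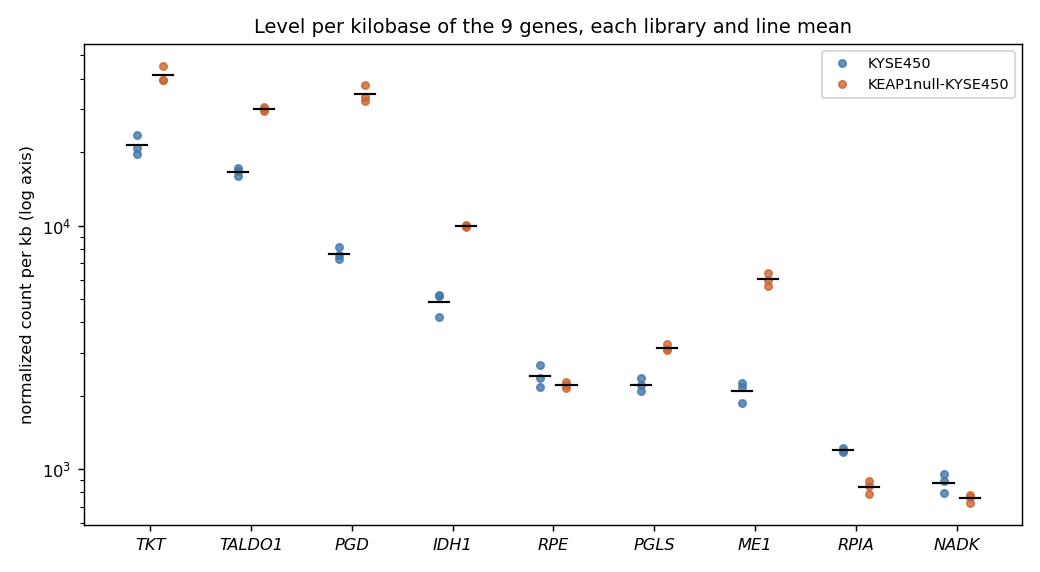
Normalized count per kilobase of the canonical transcript (vertical log axis) for the 9 genes, ordered by their level in KYSE450, with each library as a point and the mean of each line as a bar. PGD moves from 7669 in KYSE450 (blue) to 34688 in KEAP1null-KYSE450 (orange), and RPE, PGLS and ME1, which overlap in KYSE450 with this length, are spread apart in KEAP1null-KYSE450.

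The remaining genes of these routes were taken from 4 lists of 43 genes. Of these, 32 passed the filter, 4 passed both thresholds upward and 1 downward, which is 12.5% and 3.12% of those tested, near the shares over all genes. None of the 8 tested genes of the remaining pentose phosphate list passed both thresholds. PRPS2, which makes phosphoribosyl pyrophosphate from ribose phosphate, had a log2 fold change of -0.33 (adjusted p = 0.00861), PRPSAP2, an associated protein, 0.26 (adjusted p = 0.0343) and the deoxyribose phosphate aldolase DERA 0.16 (adjusted p = 0.21, all limma). The transketolase relatives TKTL1 and TKTL2 held at most 1 read in any library, so TKT was the transketolase gene above the floor of 3 reads.

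Among the genes that bring glucose to this branch point, the hexokinases moved in opposite directions. HK1 was at 7323, 5278 and 4702 normalized counts in KYSE450 and at 19237, 15427 and 14884 in KEAP1null-KYSE450 libraries, a log2 fold change of 1.53 (adjusted p = 5.08e-06, limma). HK2 was at 13831, 10970 and 8816 in KYSE450 and at 6229, 5637 and 4883 in KEAP1null-KYSE450 libraries, a log2 fold change of -0.99 (adjusted p = 1.41e-04, limma). Per kilobase of the canonical transcript, the mean level of HK2 was 1992 and that of HK1 1601 normalized counts in KYSE450, against 992 for HK2 and 4585 for HK1 in KEAP1null-KYSE450, so that HK2 was above HK1 in each KYSE450 library and below it in each KEAP1null-KYSE450 library. HKDC1, a further hexokinase, was listed at 0 in KYSE450 libraries and at 29.5, 6.12 and 12.1 in KEAP1null-KYSE450 libraries, at least 5.28-fold higher against a floor of 3 reads per library. That bound rests on KEAP1null-KYSE450 library 1 and is 3.02-fold without it. The mean of HKDC1 was below the filter, and with no filter it passed both thresholds (adjusted p = 7.32e-04, limma). The glucose transporter gene SLC2A1 had a log2 fold change of 0.61 (adjusted p = 0.0129, limma). SLC2A3, another glucose transporter gene, passed both thresholds downward from between 40.1 and 63.1 to between 2.77 and 12.2 normalized counts. GPI, which takes glucose phosphate into glycolysis instead, had a log2 fold change of 0.15 (adjusted p = 0.43, limma). TIGAR, a phosphatase known to favour the pentose phosphate route and named here after its values were seen, had a log2 fold change of -0.93 (adjusted p = 6.39e-04, limma).

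**Figure D5:**
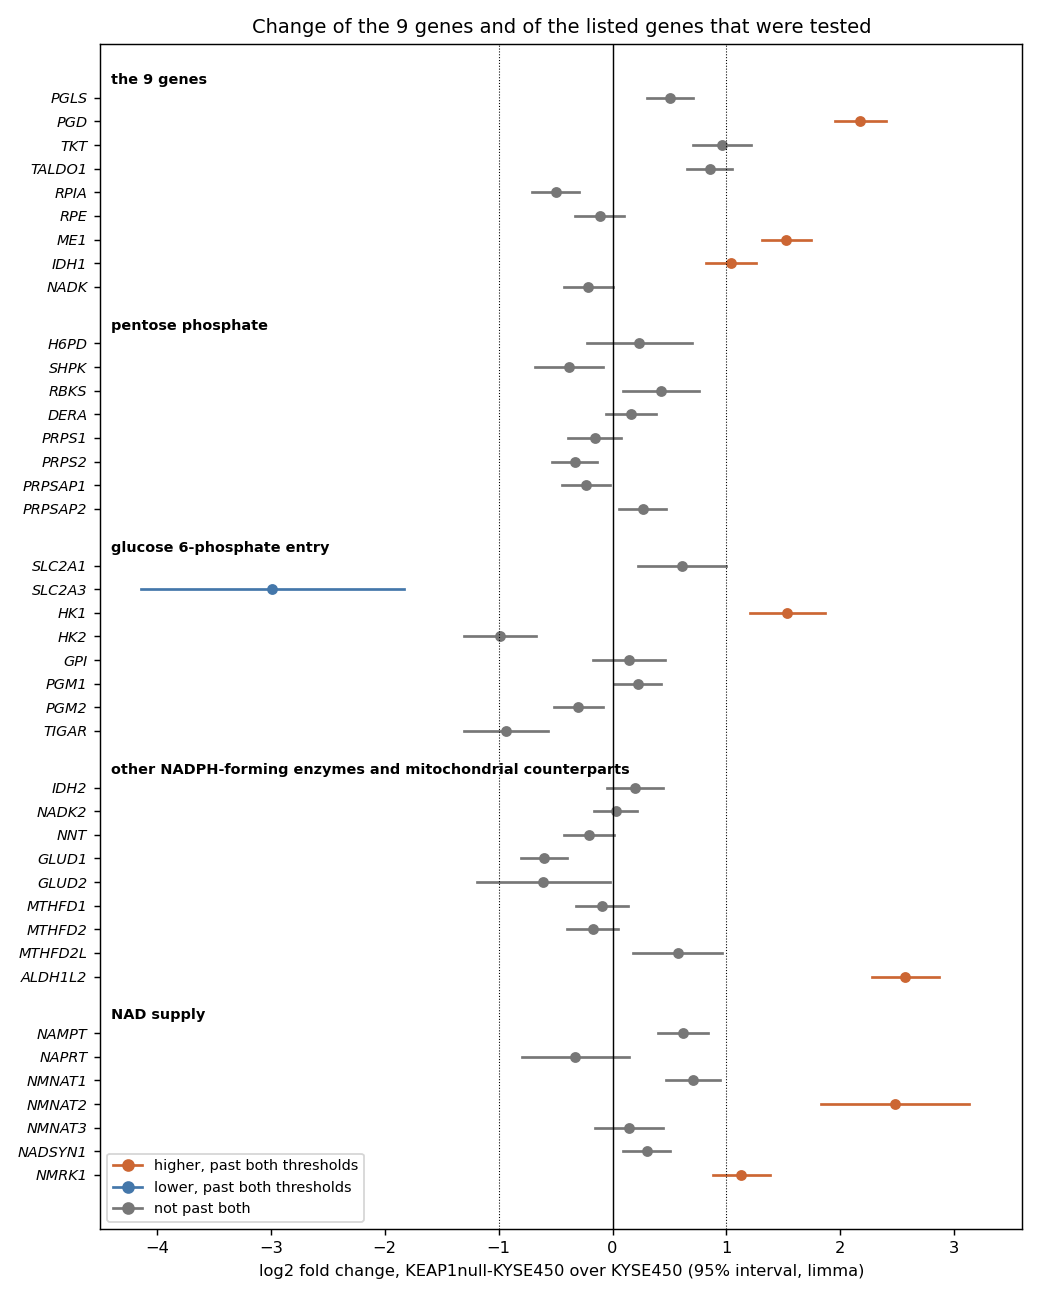
Log2 fold change of KEAP1null-KYSE450 over KYSE450 (horizontal axis) with its 95% interval from limma, for the 9 genes and the 32 tested genes of the lists. Orange marks genes past both thresholds upward, blue downward, grey the rest, and dotted lines mark a log2 fold change of 1 either way. The intervals of PGD, ME1, ALDH1L2, HK1 and NMNAT2 lie above the upper line, and those of IDH1, TKT, TALDO1 and NMRK1 cross it.

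Of the 9 tested genes that form NADPH elsewhere or serve mitochondria, ALDH1L2 passed both thresholds. It encodes mitochondrial formyltetrahydrofolate dehydrogenase, which forms NADPH, and was at 233, 221 and 194 normalized counts in KYSE450 and at 1439, 1190 and 1238 in KEAP1null-KYSE450 libraries. The lines did not overlap, and the log2 fold change of ALDH1L2 was 2.57 (SE 0.14, adjusted p = 1.48e-08, limma). The folate enzymes MTHFD1 and MTHFD2 had log2 fold changes of -0.095 and -0.17 and did not pass the test. GLUD1, glutamate dehydrogenase, had a log2 fold change of -0.60 (adjusted p = 1.79e-04, limma), with GLUD2 a near-identical copy that could share its reads.

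In the list of NAD supply, the substrate of NADK, 2 of 7 tested genes passed both thresholds, both upward, against 12.2% of all genes tested. NMRK1, nicotinamide riboside kinase, was at 892, 1105 and 978 in KYSE450 and at 1953, 2366 and 2203 in KEAP1null-KYSE450 libraries, a log2 fold change of 1.13 (adjusted p = 7.58e-06, limma). NMNAT2, an adenylyltransferase of NAD synthesis, rose from between 22.2 and 53.1 to between 208 and 226 normalized counts (log2 fold change 2.48, adjusted p = 2.81e-05, limma). NAMPT, the main salvage enzyme of nicotinamide, NMNAT1 and NADSYN1 had log2 fold changes of 0.62, 0.71 and 0.30, with adjusted p of 3.05e-04, 2.06e-04 and 0.0203 (limma). By the adjusted p alone 5 of the 7 genes were higher and none lower, against 24.3% of all genes higher, and the lines did not overlap for these 5, against 28.4% of all genes. The list was chosen with earlier results of these data known, so these shares describe it and are no test of it.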

How the data were processed

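RNA of 6 libraries was analysed, 3 per line. By the methods, the authors filtered the reads, aligned them to hg38 with STAR (version 2.6.90c), counted them per gene with featureCounts (version 1.5.1) and normalized the matrix; whether counting used strand is not given in the sources used here. The deposited values are a signal per gene and library, namely read counts divided by 1 factor per library. All values were whole multiples of a library step (tolerance 0.1 reads). For 4 libraries (steps not close to 1) whole reads were recovered, between 53027359 and 61543442 per library. The columns name the line and no replicate number, so libraries are numbered by column order.

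Here, limma (version 3.58.1, R 4.3.3, eBayes with trend) was run on log2(normalized count + 1), a scale that understates changes of low genes, keeping genes whose mean was 10 or higher, two-sided, with Benjamini-Hochberg adjustment over all of them. Folds printed as "-fold" are ratios of means. Ratios of 2 genes were tested by exact permutation of libraries. edgeR (version 4.0.16) and DESeq2 (version 1.42.0) served as alternatives on recovered reads, beside other pseudocounts, filters and scalings and each library left out. A floor of 3 reads covers counting error only. Positions and lengths are from gencode v44 (hg38). Beside the 9 genes, the text names checks of the edited gene, genes of the ratios, and of each list those past both thresholds and up to 3 of the most abundant others. HKDC1, which was below the filter, and TIGAR were named outside that rule. So were RPEL1, TKTL1, TKTL2 and GLUD2, as relatives of named genes. The members and lists were chosen with earlier results of these data known.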

Additional observations from a re-analysis of the deposited data

How the results depend on the processing

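Over 16 other settings for each of the 9 genes, 138 of 144 values kept their direction and side of the thresholds, and the exceptions were those given above for IDH1 (2), TKT (2), TALDO1 (1) and RPE (1, with 0.054 after quantile normalization). The number of the 9 genes past both thresholds was 3 in each fit that left out a library, where IDH1 was replaced by TKT without KYSE450 library 1, and it was 6 higher and 1 lower with no fold cutoff. Over all genes, 2045 were higher and 999 lower, a share of 67.2% higher that was 53.3% after quantile normalization (1413 higher, 1236 lower). With a mean of at least 100 there were 875 higher, with a test against a log2 fold change of 1 626 higher and 395 lower, with no fold cutoff 4060 and 4251, and without single libraries between 1748 and 2018 higher and between 874 and 1094 lower. Of the listed genes, 4 higher and 1 lower became 11 and 7 with no fold cutoff, and 5 were higher with no filter, where HKDC1 joined. The number lower was 0 with a mean of at least 100, 3 after quantile normalization (SLC2A3, TIGAR and GLUD2), and between 1 and 2 without single libraries, where HK2 joined without KYSE450 library 3 or KEAP1null-KYSE450 library 1.

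The log2 change of KEAP1, -0.017, had the opposite sign at 0.016 after rescaling to the same total, 0.14 after quantile normalization, 0.034 without KYSE450 library 1 and 0.040 without KEAP1null-KYSE450 library 2, within a range of -0.072 to 0.040 without single libraries, with an adjusted p of at least 0.221 throughout (limma, edgeR and DESeq2). Without single libraries the ratio changes lay between -0.35 and 0.97 for ME1/ME3, 0.66 and 1.02 for IDH1/IDH2, -0.31 and -0.18 for NADK/NADK2, 0.023 and 0.21 for TKT/TALDO1, 1.59 and 1.73 for PGD/PGLS, and 0.33 and 0.45 for RPE/RPIA. ME1/ME2 and ME1/ME3 are set by the pseudocount, since ME2 and ME3 are at the floor: ME1/ME2 was 1.66 with 1 and 2.36 with 0.1, and ME1/ME3 was 0.25 with 1 and -1.62 with 0.1. TKT/TALDO1 was -0.19 after quantile normalization, and the cause was not tested. No paired analysis was possible because the columns carry no replicate number, so the planned replicate block was not run.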

Other observations

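The near absence of ME2 in both lines was followed up after its values were seen, by reading the protein-coding genes within 1 Mb of it on chromosome 18 in hg38. ME2 lies from 50879080 to 50954257 and ELAC1, a tRNA-processing nuclease gene, follows from 50967991 to 50988121. ELAC1 held at most 1 read in any of the 6 libraries, as ME2 held at most 2. ENSG00000267699, an unnamed gene from 50968019 to 51058144 that overlaps ELAC1 and SMAD4, was at 0 in all 6 libraries. SMAD4, from 51028528 to 51085045, a signal transducer of the TGF-beta pathway, was between 1063 and 1327 normalized counts in all 6 libraries. MEX3C, farther on, was between 992 and 1458. On the other side of ME2, MRO held at most 1 read in every KYSE450 library but 63.7, 78.5 and 64.6 normalized counts in KEAP1null-KYSE450 libraries, at least 22.9-fold higher against the floor of 3 reads per library. MAPK4, beyond MRO, held at most 2 reads, and SKA1, beyond MAPK4, was between 316 and 584. Genes counted at or near 0 thus lay next to each other from MAPK4 to ELAC1 in KYSE450 cells. In KEAP1null-KYSE450 cells MRO, which lies among them, was above the floor. The DNA of the lines was not measured in these libraries, and the cause was not tested.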
